A study of Mus musculus with 32 samples.

Results

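The 8 genes described here belong to the cholesterol pathway. They were chosen by name, with earlier results of these data known. They are 8 of 41388 genes in the count tables of mouse femur marrow. In the order of the pathway, the enzymes are Hmgcs1, Idi1, Fdps, Sqle, Lss and Sc5d. The regulators are Insig1 and Srebf2. No gene of cholesterol uptake is among the 8, so the uptake genes come from a separate list. All 8 passed the filter on low counts that left 14527 genes for testing.

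Whole femur marrow was profiled by RNA sequencing in 32 libraries, 4 mice in each of 8 groups, all on the C57BL/6 background. Every mouse carried the floxed diphtheria toxin receptor (DTR). In the DTRADQ mice (DTR flox, ADQ Cre+) adiponectin-Cre switches the receptor on, so that the model is limited to cells in which that promoter is or was active. Con mice (DTR flox, No Cre) were littermates without Cre. At 2 months of age mice of both genotypes received 100 ng of diphtheria toxin (DT) intraperitoneally on each of 1, 2 or 3 days, or received no DT. The design asks how the marrow transcriptome differed between genotypes before and after the adiponectin lineage was removed.

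Cholesterol is built from acetyl-CoA through mevalonate, isoprenoid diphosphates, squalene and lanosterol. The transcription factor SREBP-2, encoded by Srebf2, raises the transcription of nearly every enzyme of this route. When sterols are plentiful, INSIG proteins hold the SREBP escort SCAP in the endoplasmic reticulum, and SREBP-2 stays inactive. Insig1 is itself a target of SREBP-2. In marrow the pathway serves membrane growth of dividing blood precursors, and activated LXR receptors oppose it by promoting cholesterol efflux.

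Promoter sequences were available for 6 of the 8 genes, all but Sqle and Fdps, in the RefSeq table of GRCm38.p6, each covering 250 bases before and 50 bases from the start. The promoters of Hmgcs1, Insig1 and Srebf2 are printed because these 3 genes carried every genotype difference that passed the test. Capitals mark the classic sterol regulatory element TCACNCCAC and the NF-Y box CCAAT, searched on both strands, so that a box on the other strand reads ATTGG. The marked matches do not overlap each other.
Hmgcs1, chr13:119690101-119690400, plus strand: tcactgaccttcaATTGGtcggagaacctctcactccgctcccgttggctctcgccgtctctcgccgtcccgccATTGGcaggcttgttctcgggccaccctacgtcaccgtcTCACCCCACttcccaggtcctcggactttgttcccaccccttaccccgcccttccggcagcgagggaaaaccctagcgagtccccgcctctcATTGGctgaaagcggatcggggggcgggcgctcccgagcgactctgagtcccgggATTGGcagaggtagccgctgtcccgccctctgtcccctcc
Insig1, chr5:28071162-28071461, plus strand: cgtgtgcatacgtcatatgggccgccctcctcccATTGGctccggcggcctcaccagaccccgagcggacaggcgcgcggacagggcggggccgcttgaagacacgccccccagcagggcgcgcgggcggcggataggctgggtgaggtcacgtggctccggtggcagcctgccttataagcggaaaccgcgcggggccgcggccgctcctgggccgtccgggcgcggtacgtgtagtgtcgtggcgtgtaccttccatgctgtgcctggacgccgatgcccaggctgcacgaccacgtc
Srebf2, chr15:82147019-82147318, plus strand: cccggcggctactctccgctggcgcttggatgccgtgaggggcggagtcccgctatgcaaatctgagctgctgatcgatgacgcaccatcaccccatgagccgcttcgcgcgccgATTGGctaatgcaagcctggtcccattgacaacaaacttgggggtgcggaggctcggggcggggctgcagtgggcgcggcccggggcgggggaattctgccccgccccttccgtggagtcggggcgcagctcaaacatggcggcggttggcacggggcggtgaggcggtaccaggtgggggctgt
The sterol element was found in 1 of the 6 promoters, that of Hmgcs1, as TCACCCCAC with its first base at position -137 from the RefSeq start. The Hmgcs1 window ends at 119690400, before the gene start of 119690462 deposited with the counts. The element was found in 1.24% of all 32851 promoters of the table. It was found in 0 of 32 promoter entries of the listed other synthesis enzymes, SREBP regulators and uptake and trafficking genes. Genes of LXR signalling and fatty acid synthesis were not among these entries. The NF-Y box was found in all 6 promoters, against 37.4% of all promoters and 17 of the same 32 entries. Hmgcs1 held 4 boxes and Idi1 held 2. These matches describe the letters in these windows and do not show binding.

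Levels are given as TMM-scaled CPM, counts divided by the effective library size and scaled to CPM, and differences as log2 changes with their standard errors. Tests are edgeR's quasi-likelihood test with Benjamini-Hochberg adjustment over all 14527 genes and a threshold of 0.05. Sequencing depth was 8.97 M to 22.93 M counts per library, the median being 14.17 M. Markers of erythroid cells, neutrophils and B lineage cells were detected in every group, as whole marrow should show. Adipoq, the adiponectin gene, checked the ablation. After DT its level was 0.221 to 1.07 CPM across the 12 DTRADQ libraries, against 32.1 to 66.3 CPM across the 12 Con libraries. Without DT the DTRADQ libraries already held 34.6 ± 8.96 CPM against 82.1 ± 38.4 CPM (SD, n = 4 each). Con no-DT libraries 3 and 4 stood apart from the rest. Their 10 most abundant genes took 37.41% and 50.69% of counts, against 19.4% to 30.87% elsewhere, and results that rest on them are given with and without them. In the labels, lane 8 is given for the 8 day-3 libraries and all lanes for the other 24. Comparisons of day 3 with no DT therefore cannot be told apart from this label, whereas genotypes on the same day share it.

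Divided by exon length, the median level over the 32 libraries was highest for Sc5d at 22.4 CPM per kilobase and Fdps at 21.7. The ranges of these neighbours overlapped almost fully, from 6.79 to 32.2 for Sc5d and from 7.8 to 38.3 for Fdps. Hmgcs1 followed at 10.9 CPM per kilobase and Insig1 at 7.33. Srebf2 at 2.59 and Sqle at 2.31 CPM per kilobase were next and overlapped in range. Lss at 0.479 and Idi1 at 0.389 CPM per kilobase were lowest, and Idi1 rested on 0 to 45 counts per library. In bulk marrow, fewer cells of a type and less RNA per cell cannot be told apart.

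At day 3 of DT, Hmgcs1 and Srebf2 were higher in DTRADQ marrow than in Con marrow, and no member was lower. Thus 2 of 8 members passed the test, or 1 in 4, where 22.9% of all genes passed in either direction. All 8 estimates were positive, with a median log2 change of 0.47 against -0.02 over all genes. Those of Sqle, Insig1 and Idi1, at 0.08, 0.06 and 0.01, were smaller than their standard errors. Insig1 and Idi1 changed sign when single day-3 libraries were left out. The share of positive estimates over all genes was not computed. The groups did not overlap for 5 of 8 members, each higher in DTRADQ. Over all genes, 35.3% showed no overlap in either direction.

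Hmgcs1, which condenses acetoacetyl-CoA and acetyl-CoA at the entry to the mevalonate route, lies at chr13:119690462-119708086 on the plus strand. Gene positions are those deposited with the counts, on build GRCm38. At day 3 the level of Hmgcs1 was 49.9, 43.5, 41.4 and 49.4 CPM in the DTRADQ libraries. In the Con libraries it was 29.7, 27.5, 29.2 and 28.8 CPM. The Con values lay within a narrow band, and all DTRADQ values stood above it. The difference was 0.68 ± 0.21 on the log2 scale, a 1.6-fold higher level (adjusted p = 0.0189).

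Srebf2, the gene of SREBP-2 itself, lies at chr15:82147266-82205376 on the plus strand. Its day-3 level was 14.6, 17.9, 18.6 and 18.2 CPM in DTRADQ. Con held 11.9, 11.9, 12.8 and 12.8 CPM. DTRADQ library 1 was the lowest of its group and still stood above every Con library. The log2 change was 0.49 ± 0.16, a 1.4-fold higher level (adjusted p = 0.0257).

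**Figure D1:**
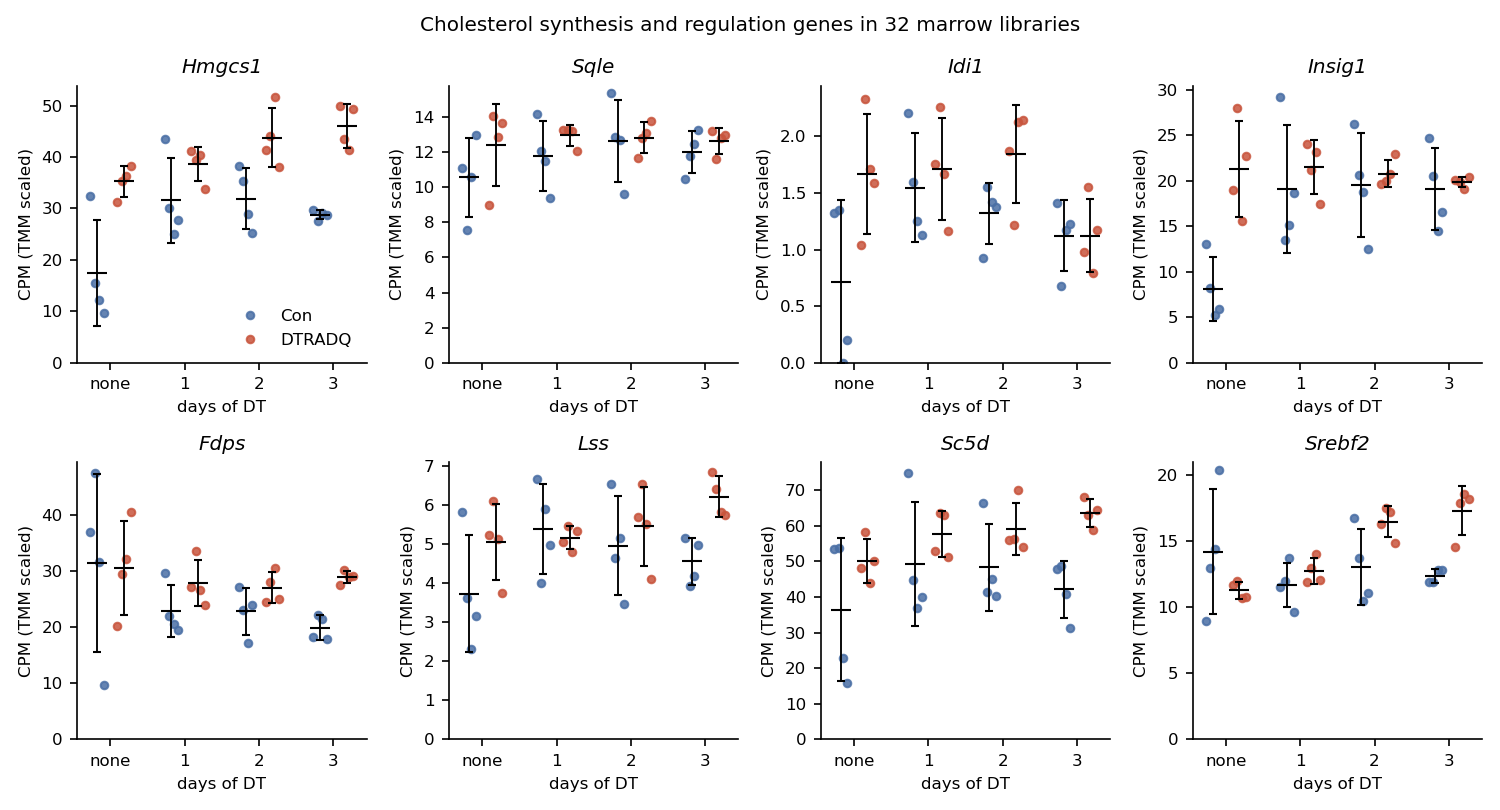
Level of each of the 8 genes (vertical axes, TMM-scaled CPM from 0) by days of DT (horizontal axes), with 1 point per library for Con (blue) and DTRADQ (red), and the mean and SD of 4 libraries in black. Hmgcs1, Fdps, Lss, Sc5d and Srebf2 do not overlap between genotypes at day 3, and Con no-DT libraries spread widely, from 9.68 to 32.5 CPM for Hmgcs1.

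Sc5d, Fdps and Lss did not overlap between genotypes at day 3 but missed the threshold. Sc5d, the sterol C5-desaturase late in the route, lies at chr9:42254177-42264300 on the minus strand. It stood at 68.2, 63.2, 58.8 and 64.5 CPM in DTRADQ and at 47.8, 48.8, 40.7 and 31.2 CPM in Con. The lowest DTRADQ library exceeded the highest Con library, and the log2 change was 0.60 ± 0.25 (adjusted p = 0.0842). Fdps, which makes farnesyl diphosphate, lies at chr3:89093592-89101967 on the minus strand. Its level was 27.5, 30.2, 28.9 and 29.1 CPM in DTRADQ and 18.3, 22.1, 21.5 and 17.8 CPM in Con. Both groups were tight and apart, with a log2 change of 0.54 ± 0.24 (adjusted p = 0.1102). Lss, lanosterol synthase, lies at chr10:76531588-76557138 on the plus strand. It was measured at 6.87, 6.43, 5.82 and 5.76 CPM in DTRADQ and at 5.16, 3.92, 4.2 and 4.99 CPM in Con. The gap between the groups was small, and the log2 change was 0.45 ± 0.21 (adjusted p = 0.1208). An exon of Lss overlaps 4930483K19Rik on the opposite strand over 1143 bases, a gene with a median count of 0.

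The other members overlapped between genotypes at day 3. Insig1, at chr5:28071363-28078662 on the plus strand, was at 20.1, 19.9, 19.1 and 20.4 CPM in DTRADQ and at 24.7, 20.5, 14.5 and 16.6 CPM in Con. The DTRADQ values fell inside the wider Con range, and the log2 change was 0.06 ± 0.23 (adjusted p = 0.8875). Sqle, squalene epoxidase at chr15:59315077-59331192 on the plus strand, ranged from 11.6 to 13.2 CPM in DTRADQ and from 10.5 to 13.3 CPM in Con. Its log2 change was 0.08 ± 0.15 (adjusted p = 0.7562). Idi1, the isopentenyl diphosphate isomerase at chr13:8885501-8892451 on the plus strand, ranged over 0.793 to 1.55 CPM in DTRADQ, against 0.679 to 1.41 CPM in Con. No change of Idi1 was detected, with a log2 change of 0.01 ± 0.38 (adjusted p = 0.985).

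The calls at day 3 moved with the libraries in the model, while the log2 changes moved little. Fitted on the 2 day-3 groups alone, 5 members passed, namely Hmgcs1, Srebf2, Sc5d, Fdps and Lss, with adjusted p between 1.2e-04 and 0.037. Without Con no-DT libraries 3 and 4, which do not enter the day-3 means, Hmgcs1, Srebf2, Sc5d, Fdps and Lss also passed, with adjusted p between 0.0014 and 0.0495. In the model of all 32 libraries 3330 genes passed at day 3. More genes passed in both of these fits too, so the rise was not particular to the members. The call of Hmgcs1 was lost without DTRADQ day-3 library 4, at a log2 change of 0.64 (adjusted p = 0.0506). The call of Srebf2 was lost without DTRADQ library 4 (0.064) and without Con library 1 (0.0609), 2 (0.0569) or 4 (0.0502), all adjusted p. Its log2 change in these 4 fits ran from 0.46 to 0.50, against 0.49 with all libraries.

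**Figure D2:**
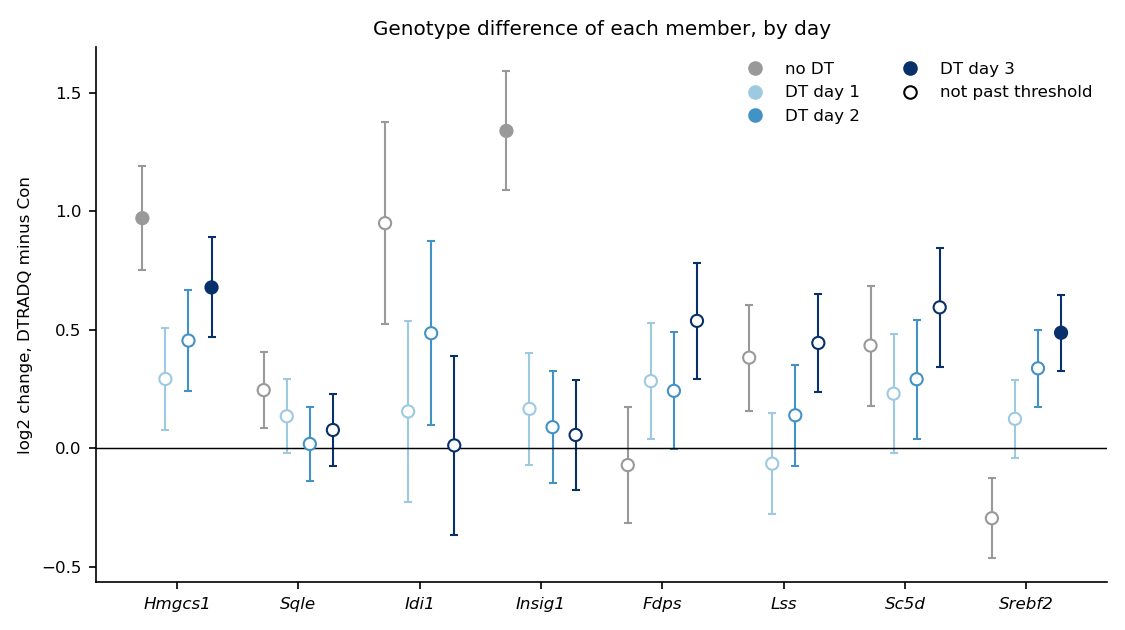
Log2 change between DTRADQ and Con (vertical axis) for each of the 8 genes (horizontal axis), without DT and at days 1, 2 and 3, with standard errors from the model. Filled points passed the threshold of 0.05, which were Hmgcs1 and Insig1 without DT and Hmgcs1 and Srebf2 at day 3.

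At day 1 the test called 0 of 8 members in edgeR, 0 in DESeq2, and 0 at an unadjusted p under 0.05, where 3.90% of all genes passed. The median log2 change of the members was 0.16. Hmgcs1 stood at 41.2, 39.5, 40.3 and 33.8 CPM in DTRADQ and at 43.5, 30.1, 25.0 and 27.7 CPM in Con. Con library 1 was the highest of the 8, so the groups overlapped, and the log2 change was 0.29 ± 0.21 (adjusted p = 0.5264). No member separated the groups at day 1, while 14.0% of all genes did.

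At day 2 all 8 estimates were again positive with a median of 0.27, and 0 of 8 passed in edgeR or in DESeq2, against 8.52% of all genes. At an unadjusted p under 0.05 there were 2, Hmgcs1 and Srebf2. The estimates of Sqle and Insig1, 0.02 and 0.09, turned negative without Con day-2 library 4. Hmgcs1 held 41.4, 44.1, 51.6 and 38.1 CPM in DTRADQ and 38.3, 35.3, 28.9 and 25.2 CPM in Con. A single DTRADQ library lay just under the highest Con library, and the log2 change was 0.46 ± 0.21 (adjusted p = 0.1764). Srebf2 held 16.3, 17.5, 17.2 and 14.9 CPM in DTRADQ and 16.8, 13.7, 10.5 and 11.1 CPM in Con. Con library 1 lay inside the DTRADQ range, and the log2 change was 0.34 ± 0.16 (adjusted p = 0.1924). The groups overlapped for every member at day 2, where 21.5% of all genes did not overlap. With the 2 day-2 groups fitted alone, Hmgcs1 passed (adjusted p = 0.0388), and so it did without Con no-DT libraries 3 and 4 (adjusted p = 0.0442).

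Without DT, Hmgcs1 and Insig1 were higher in DTRADQ than in Con marrow, 2 of 8 members where 27.1% of all genes passed. Hmgcs1 stood at 31.2, 35.3, 36.3 and 38.3 CPM in DTRADQ and at 32.5, 15.5, 12.1 and 9.68 CPM in Con. Con library 1 reached the DTRADQ range and the other 3 lay far below it. The log2 change was 0.97 ± 0.22 (adjusted p = 0.0015). Insig1, which encodes an endoplasmic reticulum anchor for SCAP, stood at 19.0, 28.0, 15.6 and 22.7 CPM in DTRADQ. Con held 13.1, 8.18, 5.23 and 5.93 CPM. It was the 1 member whose groups did not overlap, as for 11.1% of all genes, with a log2 change of 1.34 ± 0.25 (adjusted p = 2.2e-04).

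These differences without DT rested partly on Con libraries 3 and 4. Without both, the log2 change of Hmgcs1 was 0.55 ± 0.21 (adjusted p = 0.0784), and that of Insig1 was 1.00 ± 0.28 (adjusted p = 0.0178). Fitted on the 2 no-DT groups alone, no member passed in edgeR, and 0 of all genes did. The summed level of 26 erythroid genes in the Con no-DT libraries ran from 95600 to 484000 CPM, against 76300 to 106000 CPM in DTRADQ, and none of the 26 was at 0. Its part in these differences was not tested. Srebf2 ran the other way in the same Con libraries, at 8.96, 13, 14.4 and 20.4 CPM, highest in library 4. DTRADQ held 11.7, 12, 10.7 and 10.8 CPM, inside that range, and the log2 change was -0.29 ± 0.17 (adjusted p = 0.1998). Sc5d was uneven within Con, with 53.4 and 53.9 CPM in libraries 1 and 2 and 22.7 and 15.8 CPM in libraries 3 and 4. In DTRADQ it was 48.2, 58.4, 43.8 and 50.2 CPM, a range that held Con libraries 1 and 2 and stood above the others. Fdps spread from 9.68 to 47.5 CPM in Con and from 20.2 to 40.5 CPM in DTRADQ.

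**Figure D3:**
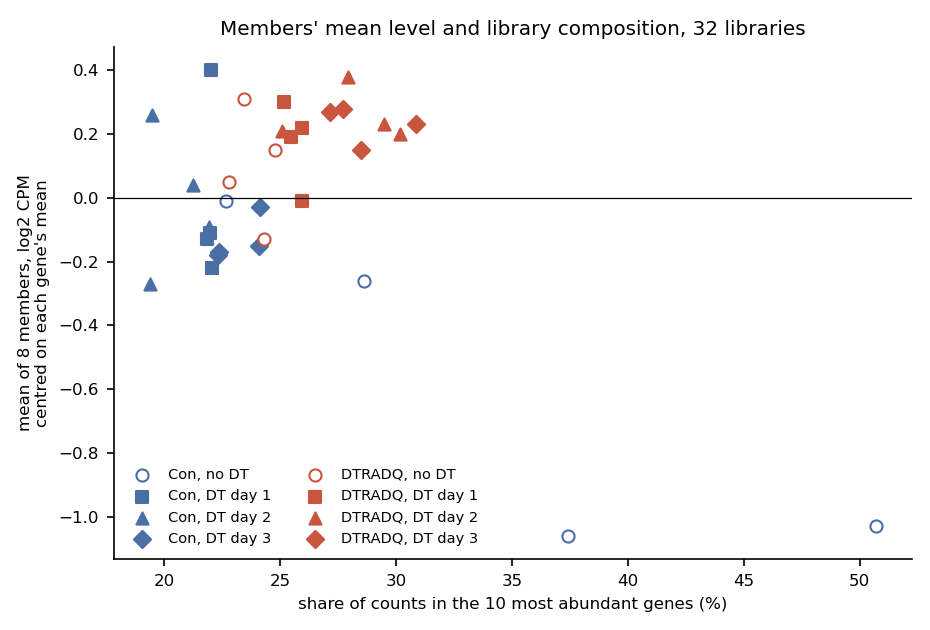
Mean of the 8 genes in each of 32 libraries (vertical axis, log2 CPM, each gene centred on its own mean over the libraries) against the share of counts in the 10 most abundant genes (horizontal axis, percent), by genotype (colour) and days of DT (shape). Con no-DT libraries 3 and 4 lie at the lower right, at 37.41% and 50.69%, and at day 3 the DTRADQ libraries lie between 0.15 and 0.28 and the Con libraries between -0.18 and -0.03.

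The time course was read within each genotype. In DTRADQ marrow, Srebf2 rose, from 11.3 ± 0.65 CPM without DT to 12.8 ± 0.95 at day 1, 16.5 ± 1.18 at day 2 and 17.3 ± 1.88 at day 3 (SD, n = 4 each). Relative to no DT the log2 change was 0.18 ± 0.16 at day 1 (adjusted p = 0.5949), 0.54 ± 0.16 at day 2 (0.0337) and 0.62 ± 0.16 at day 3 (0.0044). At days 2 and 3 every DTRADQ library exceeded every DTRADQ library without DT. Srebf2 was the 1 member of 8 that passed at each of these days, against 9.11% and 29.4% of all genes, and none passed at day 1 in edgeR or DESeq2 or at an unadjusted p under 0.05, against 5.48%. Hmgcs1 at day 3 was 0.39 ± 0.21 above no DT on the log2 scale (adjusted p = 0.1715), with no overlap between the groups. Sc5d, at 0.34 ± 0.25 (adjusted p = 0.3147), did not overlap at day 3 either. The share of all genes without overlap was not computed within a genotype, so these separations have no background to compare with. The day-2 call of Srebf2 was lost with no filter on low counts and without DTRADQ no-DT library 3 (adjusted p = 0.0881) or 4 (0.0987) or DTRADQ day-2 library 2 (0.0634) or 3 (0.076), while the log2 change stayed between 0.52 and 0.54 in these 4 fits.

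In Con marrow, where no Cre switches the receptor on, Insig1 and Hmgcs1 rose after DT, and the calls of Hmgcs1 were lost on all 3 days without Con no-DT libraries 3 and 4. Insig1 went from 8.12 ± 3.57 CPM without DT to 19.1 ± 7.04, 19.5 ± 5.68 and 19.1 ± 4.51 CPM at days 1 to 3, log2 changes of 1.18, 1.21 and 1.18 (adjusted p = 5.3e-04, 4.8e-04 and 5.4e-04). Hmgcs1 went from 17.4 ± 10.3 CPM to 31.6 ± 8.21, 31.9 ± 5.96 and 28.8 ± 0.91 CPM, log2 changes of 0.81, 0.83 and 0.68 (adjusted p = 0.0048, 0.0049 and 0.0179). Fdps fell by day 3, with a log2 change of -0.68 ± 0.25 (adjusted p = 0.0333), and its groups overlapped. These were 2, 2 and 3 of 8 members, where 33.4%, 28.3% and 30.2% of all genes passed. All 3 comparisons share the Con no-DT group with its libraries 3 and 4. Without both, the changes of Insig1 were 0.86, 0.88 and 0.85 (adjusted p = 0.0289, 0.0264 and 0.0274). Those of Hmgcs1 were 0.41, 0.42 and 0.27 and did not pass (adjusted p = 0.1777, 0.1698 and 0.3845). The day-3 change of Fdps was then larger, at -1.07 ± 0.19 (adjusted p = 1.9e-04). Without Con no-DT library 2, 3 or 4 alone, Hmgcs1 no longer passed at day 3, with adjusted p of 0.053, 0.0888 and 0.0651. The call of Fdps was lost without any of 6 single libraries, the weakest being without Con no-DT library 2, at a log2 change of -0.40 (adjusted p = 0.2494).

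The genotype difference after DT was compared with that before DT in an interaction test (genotype by DT), with the no-DT groups shared by all 3 days. For Insig1 it was lower after DT on each day, by log2 changes of -1.17 ± 0.34, -1.25 ± 0.34 and -1.28 ± 0.34 (adjusted p = 0.0231, 0.0174 and 0.0075). The Insig1 difference of 1.34 without DT thus stood at 0.17, 0.09 and 0.06 on the 3 days. Srebf2 went in the opposite direction, by 0.42 ± 0.23 at day 1 (adjusted p = 0.2533), 0.63 ± 0.23 at day 2 (0.0766) and 0.78 ± 0.23 at day 3 (0.0154). At day 3 the interaction of either gene also sets libraries labelled lane 8 against libraries labelled all lanes. A lane effect equal in both genotypes cancels in it, and one that differs between genotypes cannot be told apart. Passing members were 1, 1 and 2 of 8, where 12.3%, 11.1% and 21.0% of all genes passed. The Insig1 values without Con no-DT libraries 3 and 4 were -0.84, -0.90 and -0.92 (adjusted p = 0.1154, 0.0879 and 0.054), and the Srebf2 value at day 3 was 0.46 (adjusted p = 0.1166), so none of these calls held without them. Leaving out DTRADQ no-DT library 2, Con no-DT library 3 or Con day-1 library 1 also ended the Insig1 call at day 1, with adjusted p of 0.0618, 0.0586 and 0.0775. For Hmgcs1 the interaction was -0.68, -0.52 and -0.29 and did not pass on any day (adjusted p = 0.143, 0.284 and 0.5378). Without Con no-DT library 1, the highest of its group, it passed on all 3 days, at -1.19, -1.02 and -0.80 (adjusted p = 2.2e-04, 0.0012 and 0.0072). Without Con no-DT libraries 3 and 4 it was -0.26, -0.09 and, with the sign turned, 0.15, and did not pass (adjusted p = 0.5603, 0.8703 and 0.7317).

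Other enzymes of isoprenoid and cholesterol synthesis were read from a list of 13, all tested. At day 3, 3 of 13 were higher in DTRADQ and none was lower, with a median log2 change of 0.11. That share is close to the 22.9% of all genes that passed in either direction. Mvd, the mevalonate diphosphate decarboxylase, stood at 11.7 ± 1.49 CPM in DTRADQ and 7.88 ± 1.27 CPM in Con (SD, n = 4), a log2 change of 0.57 ± 0.17 (adjusted p = 0.0113). Msmo1, a sterol C4-methyl oxidase, was at 104 ± 7.9 and 61.4 ± 11.1 CPM, and Hsd17b7, a sterol ketoreductase, at 17.2 ± 1.71 and 10.8 ± 1.66 CPM. Their log2 changes were 0.76 ± 0.27 and 0.66 ± 0.25 (adjusted p = 0.0375 and 0.0485). None of the 3 overlapped between genotypes, as for 35.3% of all genes. Dhcr7, the last reductase of the route, did not pass, with a log2 change of 0.51 ± 0.20 (adjusted p = 0.062). These calls were lost without single day-3 libraries, while the log2 changes stayed at 0.49 to 0.67 for Mvd, 0.63 to 0.84 for Msmo1 and 0.60 to 0.75 for Hsd17b7. Mvd was lost without Con library 1 (adjusted p = 0.0518). Msmo1 was lost without library 1, 2 or 4 of either genotype, with adjusted p from 0.0544 to 0.142. Hsd17b7 was lost without any 1 of the 8 libraries, with adjusted p from 0.0523 to 0.14.

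At days 1 and 2 edgeR called 0 of the 13, where 3.90% and 8.52% of all genes passed. There were 1 and 3 at an unadjusted p under 0.05, and DESeq2 called 0 and 1. Without DT 4 of the 13 were higher and 1 was lower in DTRADQ, where 27.1% of all genes passed. Cyp51, the lanosterol demethylase, was higher by 0.74 ± 0.17 on the log2 scale (adjusted p = 0.0014), and by 0.73 without Con no-DT libraries 3 and 4 (adjusted p = 0.0175). The other higher calls, Ggps1, Msmo1 and Dhcr7, were lost without these libraries, where their log2 changes of 0.59, 0.72 and 0.55 went to 0.22, 0.15 and 0.09 (adjusted p = 0.4314, 0.727 and 0.7664). They were also lost without Con no-DT library 3 or 4 alone. Ggps1, which makes geranylgeranyl diphosphate, was lost as well without DTRADQ no-DT library 1, 2 or 4, and Msmo1 and Dhcr7 without any 1 of the 4 DTRADQ no-DT libraries. In these fits adjusted p ran from 0.0525 to 0.1055 for Ggps1, 0.0568 to 0.1914 for Msmo1 and 0.0539 to 0.2016 for Dhcr7. Mvd was the lower one, by -0.53 ± 0.18 (adjusted p = 0.0271). Its call was lost at -0.42 without Con no-DT libraries 3 and 4 (adjusted p = 0.1962), and without either alone or DTRADQ no-DT library 1 or 4, with adjusted p from 0.0638 to 0.1025. Mvd was also the 1 enzyme of the 13 whose interaction passed at both later days, where 11.1% and 21.0% of all genes passed. Its interaction was 0.83 ± 0.25 at day 2 and 1.10 ± 0.24 at day 3 (adjusted p = 0.0264 and 0.0016). Without Con no-DT libraries 3 and 4 these were 0.74 and 1.02, and the day-2 call was lost (adjusted p = 0.0657 and 0.0052). The day-2 call was also lost without any 1 of 6 single libraries, at log2 changes of 0.72 to 0.80.

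Among uptake and trafficking genes, 7 of 8 listed were tested, and 1 was higher in DTRADQ at day 3, a share below the 22.9% of all genes that passed. Npc1, which exports cholesterol from lysosomes, was at 22.4 ± 1.11 and 15.1 ± 1.13 CPM at day 3, a log2 change of 0.57 ± 0.13 (adjusted p = 0.0016). Lrp8 and Vldlr, lipoprotein receptors, differed by 0.33 ± 0.15 and 0.69 ± 0.35 and did not pass (adjusted p = 0.1256 and 0.1562).

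Of the 5 listed SREBP regulators 0 passed at day 3 in edgeR, 0 in DESeq2, and 0 at an unadjusted p under 0.05, against 22.9% of all genes in edgeR. Srebf1, the gene of the related factor SREBP-1, had a log2 change of -0.32 ± 0.21 (adjusted p = 0.2989), and Scap one of -0.01 ± 0.20 (adjusted p = 0.9675). Without DT both were lower in DTRADQ, 2 of 5 where 27.1% of all genes passed, Scap by -0.83 ± 0.20 and Srebf1 by -0.65 ± 0.22 (adjusted p = 0.0032 and 0.0298). Without Con no-DT libraries 3 and 4 Scap was at -0.23 (adjusted p = 0.4449) and Srebf1 at 0.08 (adjusted p = 0.8344). The call of Srebf1 was also lost without Con no-DT library 3 or 4 alone, at -0.43 and -0.36, or without DTRADQ no-DT library 1 or 2, at -0.55 and -0.61, with adjusted p from 0.0742 to 0.2257.

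Of 7 listed genes of LXR signalling and efflux, Mylip alone passed at day 3, a share below the 22.9% of all genes. It encodes a ubiquitin ligase induced by LXR. Mylip averaged 26.2 ± 3.22 CPM in DTRADQ marrow and 40.0 ± 4.31 CPM in Con marrow, a log2 change of -0.61 ± 0.12 (adjusted p = 3.0e-04), and at day 2 the change was -0.43 ± 0.12 (adjusted p = 0.0205). At both days every DTRADQ library lay below every Con library, and 21.5% and 35.3% of all genes showed no overlap in either direction at days 2 and 3. The day-2 call was lost when low-count genes were kept (adjusted p = 0.0768) and without DTRADQ library 2 or 3 or Con library 3 or 4, with adjusted p from 0.0527 to 0.1097 and log2 changes from -0.44 to -0.35. Abca1, the main cholesterol exporter under LXR control, had a day-3 change of -0.31 ± 0.27 and Apoe one of 0.34 ± 0.23, neither passing (adjusted p = 0.4504 and 0.2888).

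Fatty acid synthesis is the branch more tied to SREBP-1. Of 8 listed genes 1 was lower at day 3 and none was higher, a share below the 22.9% of all genes that passed. Fads1, a fatty acid desaturase, averaged 6.34 ± 1.37 CPM in DTRADQ marrow and 12.6 ± 1.89 CPM in Con marrow, a log2 change of -0.99 ± 0.18 (adjusted p = 1.0e-04). Scd1, the stearoyl-CoA desaturase, was lower at days 1 and 2, by -1.14 ± 0.26 and -1.22 ± 0.26 (adjusted p = 0.0058 and 0.0027), and at day 3 its change was 0.07 ± 0.25 (adjusted p = 0.8591). It was the 1 gene of 8 called at day 1, where 3.90% of all genes passed. At day 2 Fads1 was called too, at -0.70 ± 0.18 (adjusted p = 0.0134), making 2 of 8 where 8.52% of all genes passed. This Fads1 call was lost without DTRADQ day-2 library 3 (adjusted p = 0.0705) or Con day-2 library 4 (0.0503). Fasn, fatty acid synthase, and Acly, which supplies cytosolic acetyl-CoA, did not pass at day 3, with changes of 0.44 ± 0.28 and 0.27 ± 0.14 (adjusted p = 0.2668 and 0.1644). Without DT Acly alone was called, 1 of 8 where 27.1% of all genes passed. Its change there was 0.74 ± 0.14 (adjusted p = 2.6e-04), and 0.64 to 0.94 with single libraries left out.

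**Figure D4:**
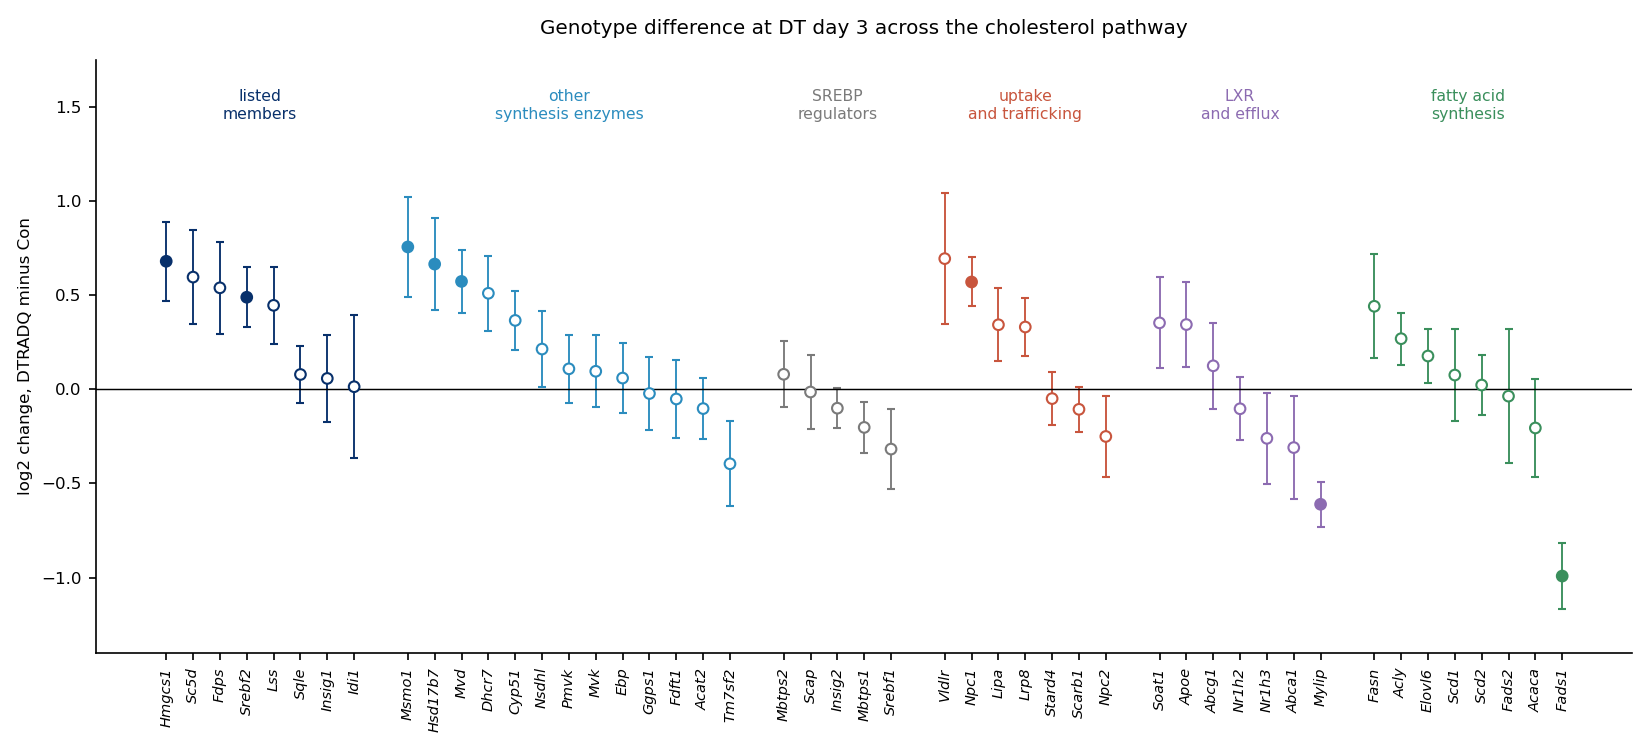
Log2 change between DTRADQ and Con at day 3 (vertical axis) for the 8 genes and the tested genes of 5 other cholesterol and lipid lists (horizontal axis, ordered by change within each list), with standard errors from the model. Filled points passed the threshold of 0.05, with Fads1 lowest among the genes plotted at -0.99.

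Markers of some cell types moved between genotypes at day 3 beside these genes, where 22.9% of all genes passed. Of 26 erythroid markers 21 were lower and 3 higher in DTRADQ, with a median log2 change of -1.69. Their summed level was nevertheless higher, at 115000 to 168000 CPM against 76200 to 102000 CPM. Klf1, an early erythroid factor, was at 9.3 ± 2.45 CPM against 45.0 ± 4.83 CPM, and Alas2, the erythroid heme enzyme, at 8740 ± 1590 CPM against 3610 ± 418 CPM. Of 22 cell division genes 19 were lower, with a summed level of 2310 to 2960 CPM against 4430 to 5360 CPM. Of 17 neutrophil markers 5 were higher and 12 did not pass, a share not far from that of all genes. Their summed levels overlapped, at 116000 to 150000 CPM against 80200 to 135000 CPM. Of 14 B lineage markers 2 were higher and 3 lower, and of 12 macrophage markers 1 was lower and none higher. Of 10 tested endothelial markers 8 were higher, at 166 to 221 CPM against 85.2 to 112 CPM, and of 10 tested skeletal muscle markers 8 were higher, at 130 to 755 CPM against 49.3 to 75.3 CPM. No marker of these lists was at 0 across a day-3 group. The part of these cell types in the differences of the 8 genes was not tested.

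The 8 genes did not vary as 1 unit across libraries. Over the 32 libraries Pearson's r of log2 CPM was positive in 23 of 28 pairs, and over 30 libraries without Con no-DT libraries 3 and 4 in 26 of 28. These values describe libraries that share groups, depth and composition, and no test was made. Hmgcs1 and Insig1 had an r of 0.86 over 32 libraries and 0.69 over 30. Hmgcs1 and Srebf2 had an r of 0.05 over 32 libraries and 0.51 over 30. Fdps and Insig1 were weakly related, with r of 0.16 and -0.14. Fdps and Sc5d, the most abundant pair per kilobase, had r of 0.61 and 0.57.

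Likeness was scored over 11349 genes whose log2 CPM averaged 1 or more. Those most like the mean of the 8 genes over 32 libraries were Fli1 at r = 0.93, Gsdme at 0.92, Gm20342 at 0.92 and Tpm3 at 0.92, followed by Inpp4a, Fnbp1, Cpsf3, Arhgap1, Gnaq and Mcu, all at 0.91 or above. After centring on group means the closest were Tet2 at 0.91 and Msmo1 at 0.90, then Zfp512b, Mcu, Ywhaz, Gsdme, Tpm3, Taok1, Gnaq and Fli1, the last at 0.86. Without Con no-DT libraries 3 and 4 the order changed, with Actb at 0.84, Hhex at 0.80 and Msmo1 at 0.80 among the closest over 30 libraries, a setting chosen after the data were seen. Fnbp1, Kdm5b, Myh9, Fli1, Slc35d2 and Tcf20 came next, at r from 0.79 to 0.78.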

How the data were processed

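Each of the 32 deposited tables holds a count, a CPM and an RPKM column per gene, per the file headers. The counts were analysed here. The CPM and RPKM that the authors deposited were recomputed from the counts to within 4.4e-10 and a relative 3.8e-14, and not used further. Per the submitters' processing notes, the tools were bcl2fastq, STAR 2.0.4b, Subread and featureCounts 1.45 with build GRCm38. The annotation release is not given in the sources used here, nor are the strand setting and the handling of multi-mapped reads. Libraries were made with a Clontech SMARTer kit, per the labels' protocols.

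In R 4.3.3 with edgeR 4.0.16, genes passed filterByExpr (minimum count 10), libraries were TMM scaled, and 1 quasi-likelihood model with 8 group means gave 13 contrasts, tested two-sided. Log2 CPM for likeness used a prior count of 2. The procedure was tested on simulated data. Libraries of a group differed by 9.09 chi-square units per gene or more in each of 48 pairs, so none was treated as a copy. Each library is from 1 mouse, so p-values measure the spread between mice and libraries.

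Alternatives were DESeq2 1.42.0, its size factors, no count filter, the compared groups alone, a replicate block, and leaving libraries out. All 8 genes were named in every group. From each pathway list up to 4 genes with the smallest p at day 3 were named, and up to 2 more in other contrasts. Up to 10 of the closest genes were named for likeness, and Adipoq as the lineage check. Genes outside this rule (Scap and Scd1 at day 3, Ggps1, Msmo1 and Dhcr7 without DT, Klf1, Alas2) were chosen after their values were seen. The members and lists were chosen with earlier results of these data known, so their directions are not independent evidence. Some genes of the pathway are not reported here and are left out of the lists' counts.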

Additional observations from a re-analysis of the deposited data

Results flagged for a closer look

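In 2 of 64 groups of 4 libraries, 1 library stood far from the other 3 by Dixon's test, and chance gives about 1 in 20. Sqle was 12.1 CPM in DTRADQ day-1 library 4, below the other 3 at 13.2 to 13.3 CPM. Sc5d was 70.0 CPM in DTRADQ day-2 library 3, above the other 3 at 54.1 to 56.3 CPM.

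The genotype difference changed after DT in 4 of 24 interaction tests over the 8 genes (edgeR, adjusted over all genes). Over all genes, 12.3%, 11.1% and 21.0% passed this test at days 1, 2 and 3. None of the 4 calls held without Con no-DT libraries 3 and 4. Insig1 was lower by -1.172, -1.249 and -1.281 at days 1, 2 and 3, comparisons that share the no-DT groups. Srebf2 was higher by 0.782 at day 3.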

How the results depend on the processing

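Counts below are members called of 8, then log2 changes. DESeq2 and its size factors kept every count but 1, genotype by DT at day 2, where DESeq2 called 2 in place of 1. With no filter on low counts the day-2 change within DTRADQ called 0 in place of 1. Fitted on the groups compared alone, the genotype comparison called 0 without DT, 1 at day 2 and 5 at day 3 (2, 0 and 2 in the shared model), genotype by DT called 0, 0 and 1 at days 1 to 3 (1, 1 and 2), each day within Con called 1 (2, 2 and 3), and day 3 within DTRADQ called 3 (1). Without Con no-DT libraries 3 and 4 these were 1, 1 and 5 for the genotypes without DT and at days 2 and 3, 0, 0 and 1 for genotype by DT, and 2 for day 3 within DTRADQ. In the shared model 33.4%, 28.3% and 30.2% of all genes passed within Con, and 29.4% at day 3 within DTRADQ. For changes within a genotype, the counts of all genes in these fits are not given, so these member counts have no background. Members called with each library left out in turn ran from 2 to 6 without DT, 0 to 2 at day 3, 0 to 3 and 1 to 3 for genotype by DT at days 1 and 2, 2 to 6 and 1 to 3 within Con at days 1 and 3, and 0 to 1 within DTRADQ at day 2. Calls over all genes moved in the same fits, from 2268 to 5947 without DT and 2258 to 3144 at day 3. For genotype by DT they ran from 1231 to 3951 at day 1 and 1135 to 3745 at day 2. Within Con they ran from 3494 to 6417 at day 1 and 3124 to 6020 at day 3, and within DTRADQ from 540 to 1300 at day 2. Without Con no-DT library 1, 6 members passed without DT, Hmgcs1, Insig1, Idi1, Lss, Sc5d and Srebf2. Without Con no-DT library 2, Idi1 passed as well (adjusted p = 0.0451). Under genotype by DT, Hmgcs1 passed on all 3 days and Srebf2 at days 1 and 2 without Con no-DT library 1, Srebf2 at day 2 without Con day-2 library 1, and Fdps at day 3 without Con no-DT library 4. The cause of these moves was not tested.

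Uncalled values changed sign without Con no-DT libraries 3 and 4, to -0.089 for Sc5d and 0.056 for Srebf2 without DT, and under genotype by DT to 0.317 for Sc5d at day 1, 0.17 for Idi1, 0.052 for Lss and 0.395 for Sc5d at day 2, and 0.148 for Hmgcs1 at day 3. Srebf1 without DT, called at -0.65, went to 0.083. Leaving out single libraries, log2 changes crossed 0 in these ranges: Fdps without DT, -0.338 to 0.218. At day 1 Idi1 ran from -0.004 to 0.379 and Lss from -0.183 to 0.056. At day 2 Sqle ran from -0.091 to 0.127 and Insig1 from -0.074 to 0.266. At day 3 Idi1 ran from -0.167 to 0.187 and Insig1 from -0.053 to 0.206. Under genotype by DT Sc5d ran from -0.467 to 0.071 at day 1, -0.385 to 0.096 at day 2 and -0.073 to 0.412 at day 3, and Lss from -0.276 to 0.243 at day 3.

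No label says what a shared replicate number means. Same-numbered libraries of the 2 genotypes correlated at 0.14 to 0.18 without DT and at -0.16 to 0.12 after DT, with 0.08 to 0.12 at day 3. The same number gave the highest r for some libraries and not for others. These values do not decide whether the numbers pair mice, and the main model used no pairing. A replicate block called 3 members at day 3, adding Sc5d (adjusted p = 0.0365), and moved Idi1 at day 3 to -0.012. The count of all genes called moved most without DT, from 3944 to 0 on the 2 groups alone and to 1875 without Con no-DT libraries 3 and 4. At days 1, 2 and 3 the genotype counts of 567, 1238 and 3330 became 940, 2621 and 5138 on the groups alone, and 1337, 2896 and 5023 without those libraries. Genotype by DT went from 1793, 1613 and 3056 to 454, 359 and 1664 on the groups alone. Idi1 rested on the fewest counts of the 8 genes, 0 to 45 per library.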
